A study of Homo sapiens with 12 samples.

Results

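The comparison described here is the addition of JQ1 to panobinostat in cultured neuroblastoma cells: 3 arrays from cells given both compounds against 3 arrays from cells given panobinostat alone, which are 6 of the 12 arrays of the series. All cells were of the line SK-N-BE(2), an established human neuroblastoma line in which the oncogene MYCN is amplified, and total RNA was taken after 6 h. The panobinostat group received 10 nM panobinostat, and the combination group received the same dose together with 1 µM JQ1. The remaining 6 arrays (3 with vehicle, 3 with 1 µM JQ1 alone) contributed to the estimate of the spread and gave the JQ1 change in the absence of panobinostat. All 14884 named genes were tested, each through 1 transcript cluster (the set of array probes assigned to a transcribed locus), the brightest on average where a gene had several. Only 1 line, 1 dose of each compound and 1 time were examined, and the labels do not say whether the arrays of a group came from separate cultures, so the p-values reflect the variation among these samples alone, and that variation may be technical. Because the RNA was bulk, fewer cells of a kind and less RNA per cell cannot be told apart.

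JQ1 is a competitive inhibitor of BET bromodomains: it displaces BET proteins such as BRD2 and BRD3 from acetylated chromatin, where the family helps to recruit P-TEFb, the CDK9 kinase complex that releases paused RNA polymerase II. Panobinostat is a hydroxamate inhibitor of histone deacetylases and raises histone acetylation. P-TEFb is held inactive by HEXIM1 in a small nuclear ribonucleoprotein, and the HEXIM1 transcript is widely used as a pharmacodynamic marker of BET inhibitors. In neuroblastoma, BET proteins occupy the super-enhancers of the adrenergic transcription factors that maintain the tumour cell's identity.

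Signals are log2 values as deposited, differences are combination minus panobinostat on the log2 scale ± SE from limma (3 arrays in each group), and a gene was called when the Benjamini-Hochberg adjusted p over all 14884 genes was under 0.05. Of the 14884 genes, 2184 (14.7%) were called, 912 higher (6.13%) and 1272 lower (8.55%) with the combination. The share of higher genes among the calls was 41.8%, and it was 52.7% (1233 against 1105 genes) after centring of each array on the median of the named genes, a setting added after the data had been seen. The median difference over all genes was -0.01, and the median over the called genes was 0.40 for those higher and -0.43 for those lower. A change of at least 2-fold was found for 14 genes that rose (0.0941%) and 32 that fell (0.215%). Calls were as a rule of genes with ample signal: 1857 of them had a higher group mean at or above the median gene mean of 7.24, and 327 lay below it. Leaving out combination replicate 2, combination replicate 3 or panobinostat replicate 1 brought the count of higher genes to 524, 579 and 589. Array medians over all 53617 clusters, named or not, were 6.194 to 6.292 in the panobinostat group and 6.205 to 6.247 in the combination group. Over the named genes alone, array medians were 7.257, 7.268 and 7.249 with panobinostat and 7.204, 7.232 and 7.238 with the combination. By that measure every combination array lay below every panobinostat array, and the share of higher genes after centring on these medians is given above. The 9 neuroblast markers measured had mean signals of 8.605 to 12.644 with panobinostat.

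The largest rise of any called gene was that of MIR7-3HG, the host transcript of the microRNA gene MIR7-3, which is known for its expression in neuroendocrine cells. Its signal was 8.44, 8.59 and 8.39 on the panobinostat arrays and 9.89, 10.08 and 10.20 on the combination arrays. All combination arrays stood above all panobinostat arrays, and the difference was 1.58 ± 0.10 (adjusted p = 1.04e-05, limma). Vehicle arrays lay at 6.91, 6.68 and 6.61 and arrays with JQ1 alone at 7.76, 7.71 and 7.72, so the 4 groups did not overlap and the combination was the highest. The cluster at the MIR7-3 hairpin itself had a low signal, 5.58, 5.55 and 5.66 with panobinostat and 6.19, 6.18 and 6.48 with both compounds, a rise of 0.69 ± 0.11 (adjusted p = 0.00199); it was looked up after the host gene's value had been seen.

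HEXIM1, the P-TEFb inhibitor, gave the smallest p of the named genes. Its signal was 8.53, 8.49 and 8.43 with panobinostat and 10.02, 9.97 and 10.03 with the combination. The groups were separated by far more than their spread, with a difference of 1.52 ± 0.06, or 2.87-fold (adjusted p = 5.78e-07). The rise was 1.85 ± 0.06 without panobinostat, and the difference between both rises, -0.33 ± 0.09, was not called (adjusted p = 0.128). A second, dimmer cluster named HEXIM1 differed by -0.27 (adjusted p = 0.278 over all named clusters) and was not called.

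The promoters of 6 genes with large changes are shown as examples of the motifs whose shares among all genes that rose and fell are given further on. They were chosen after their values had been seen, are not the 6 largest changes, and support no comparison by themselves. The sequences are RefSeq windows from 250 bases before to 50 bases after the annotated start on GRCh38.p14, read on the strand of the gene, and capitals mark each GGGCGG (GC box), CCAAT and TATAAA, on either strand. HEXIM1 (chr17:45148225-45148524, plus strand), SERTAD1 (chr19:40425943-40426242, minus strand), AMIGO3 (chr3:49719635-49719934, minus strand) and MIR7-3HG (chr19:4768855-4769154, plus strand) rose. FLRT3 (chr20:14337563-14337862, minus strand) and LRRN3 (chr7:111090877-111091176, plus strand) fell.
HEXIM1: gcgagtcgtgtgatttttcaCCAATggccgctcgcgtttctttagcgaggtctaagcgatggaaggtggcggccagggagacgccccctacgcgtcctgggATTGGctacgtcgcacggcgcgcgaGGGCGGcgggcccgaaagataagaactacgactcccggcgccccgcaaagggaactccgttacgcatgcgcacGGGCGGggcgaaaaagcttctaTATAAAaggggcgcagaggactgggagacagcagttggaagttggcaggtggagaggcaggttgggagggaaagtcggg
SERTAD1: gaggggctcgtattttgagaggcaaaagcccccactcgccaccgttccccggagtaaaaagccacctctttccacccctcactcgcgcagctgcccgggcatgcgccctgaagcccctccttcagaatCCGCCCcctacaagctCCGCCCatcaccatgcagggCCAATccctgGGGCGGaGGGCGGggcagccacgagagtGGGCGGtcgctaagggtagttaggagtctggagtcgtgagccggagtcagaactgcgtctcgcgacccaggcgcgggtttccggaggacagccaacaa
AMIGO3: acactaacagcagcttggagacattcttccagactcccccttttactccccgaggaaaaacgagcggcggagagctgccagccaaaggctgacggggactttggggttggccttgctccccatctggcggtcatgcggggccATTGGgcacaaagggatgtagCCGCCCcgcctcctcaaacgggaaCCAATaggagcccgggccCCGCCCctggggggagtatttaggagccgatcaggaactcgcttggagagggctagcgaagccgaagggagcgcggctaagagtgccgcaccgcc
MIR7-3HG: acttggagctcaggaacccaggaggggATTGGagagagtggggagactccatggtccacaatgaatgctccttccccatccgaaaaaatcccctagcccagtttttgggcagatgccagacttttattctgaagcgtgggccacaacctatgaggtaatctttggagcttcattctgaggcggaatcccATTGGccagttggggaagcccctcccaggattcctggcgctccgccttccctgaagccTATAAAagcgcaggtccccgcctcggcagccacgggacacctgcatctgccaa
FLRT3: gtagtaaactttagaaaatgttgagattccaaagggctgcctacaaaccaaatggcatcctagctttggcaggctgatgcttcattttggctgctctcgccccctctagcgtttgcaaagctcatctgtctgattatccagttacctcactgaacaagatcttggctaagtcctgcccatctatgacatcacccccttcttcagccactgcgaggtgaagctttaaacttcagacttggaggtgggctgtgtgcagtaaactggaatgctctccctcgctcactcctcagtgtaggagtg
LRRN3: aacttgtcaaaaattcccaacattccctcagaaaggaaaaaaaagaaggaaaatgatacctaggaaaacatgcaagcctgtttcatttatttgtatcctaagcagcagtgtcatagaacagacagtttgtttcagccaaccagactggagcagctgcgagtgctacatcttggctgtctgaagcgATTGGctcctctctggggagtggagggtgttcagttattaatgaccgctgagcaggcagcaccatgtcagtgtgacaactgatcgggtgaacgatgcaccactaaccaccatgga
The HEXIM1 window holds 2 GC boxes, 2 CCAAT and 1 TATAAA, and that of SERTAD1 holds 5 GC boxes and 1 CCAAT. The AMIGO3 window holds 2 GC boxes and 2 CCAAT. The MIR7-3HG window has no GC box but has 2 CCAAT and 1 TATAAA. That of FLRT3 holds none of these letters and that of LRRN3 holds 1 CCAAT.

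Among protein-coding genes, the 15 with the largest rise included EFR3B, AMIGO3, DHRS2 and SERTAD1 besides HEXIM1. EFR3B, which anchors a phosphatidylinositol 4-kinase complex at the plasma membrane, measured 8.14, 8.23 and 8.36 with panobinostat and 9.62, 9.64 and 9.77 with the combination (difference 1.43 ± 0.10, adjusted p = 2.54e-05). AMIGO3, a leucine-rich repeat adhesion protein, measured 7.08, 7.0 and 6.99 and 8.51, 8.23 and 8.63 (difference 1.43 ± 0.13, adjusted p = 6.37e-05). Neither gene's arrays overlapped between the groups, which was so for 4604 (30.9%) of all genes tested. SERTAD1, a CDK4-binding protein and transcriptional coregulator, measured 7.32, 7.0 and 7.35 with panobinostat and 8.26, 8.79 and 8.46 with the combination (difference 1.28 ± 0.15, adjusted p = 0.000241). Its rise without panobinostat was 1.28 ± 0.15, and for all 3 of these genes the change with and without panobinostat differed by less than 0.05 log2 units.

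DHRS2, a short-chain dehydrogenase known to respond to histone deacetylase inhibitors, had a different pattern of levels. It measured 7.29, 7.16 and 7.50 with panobinostat and 7.98, 8.85 and 8.99 with the combination, against 6.74, 6.40 and 6.06 with vehicle and 6.72, 6.36 and 6.31 with JQ1 alone. The combination arrays were the highest of all 4 groups but also the most spread out, and the rise of 1.29 ± 0.25 had an adjusted p of 0.00474. The JQ1 change without panobinostat was 0.06 ± 0.25, and the test of the difference, 1.23 ± 0.35, did not pass (adjusted p = 0.137).

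The other large rises were of SLC66A3 (1.10 ± 0.13), NRIP3 (1.05 ± 0.17), ACBD7 (1.04 ± 0.24), the zinc-finger factor KLF2 (1.03 ± 0.20), the neuropeptide precursor VGF (1.02 ± 0.11), the NOTCH-binding transmembrane protein DNER (1.01 ± 0.14), the triglyceride lipase PNPLA2 (1.00 ± 0.08), the magnesium transporter CNNM4 (0.99 ± 0.07), ZNF440 (0.99 ± 0.26) and the ETS factor ELF1 (0.97 ± 0.12). VGF, for example, stood at 9.17, 9.04 and 9.05 with panobinostat and 10.13, 10.18 and 10.01 with the combination, with no overlap. The call for ACBD7 was lost without combination replicate 2 (0.96). That for ZNF440 was lost without combination replicate 1 or 2 (0.95 in both), with only the 6 arrays and with a replicate block. ZNF440 measured 7.62, 8.76 and 8.76 with panobinostat, and the first of these, a low value, enlarged its rise. A second, dimmer cluster of PNPLA2 differed by 0.15 and was not called (adjusted p = 0.283 over all named clusters).

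**Figure D1:**
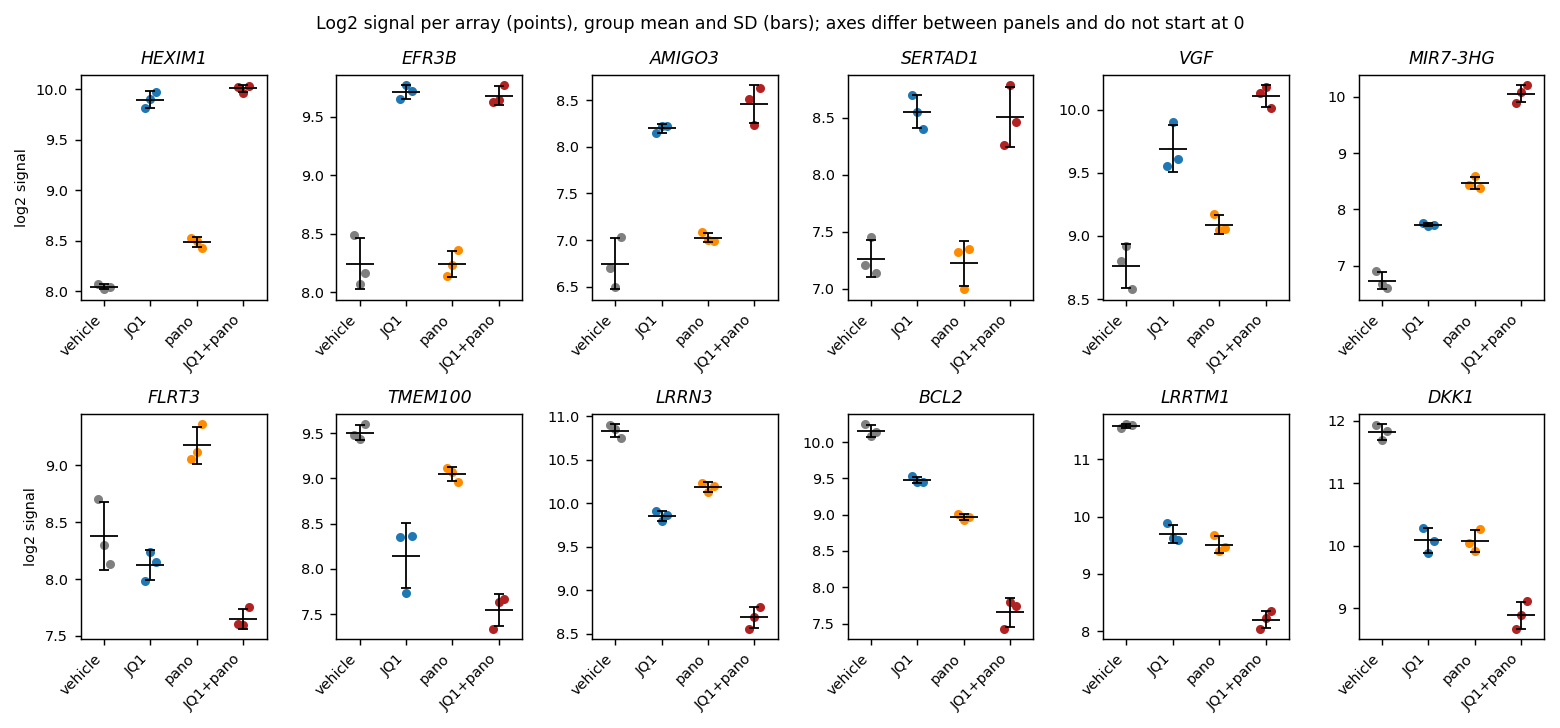
Log2 signal of 6 genes that rose (top) and 6 that fell (bottom) when JQ1 was added to panobinostat; points are single arrays, and bars show the mean and SD of 3 arrays in each of the 4 groups (JQ1+pano is the combination). In each panel the 3 combination arrays lie on one side of the 3 panobinostat arrays, as for LRRN3 at 10.19 with panobinostat and 8.69 with the combination.

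Of the genes that fell, FLRT3, a fibronectin and leucine-rich repeat protein of axon guidance, measured 9.06, 9.11 and 9.36 with panobinostat and 7.60, 7.60 and 7.75 with the combination. Its fall of -1.53 ± 0.14 (adjusted p = 6.31e-05) was the largest of any called gene. TMEM100, a transmembrane protein, measured 9.12, 9.06 and 8.96 and 7.34, 7.63 and 7.66 (difference -1.50 ± 0.15, adjusted p = 0.000124), again without overlap. LRRN3, a neuronal leucine-rich repeat protein, measured 10.23, 10.13 and 10.20 and 8.56, 8.70 and 8.81 (difference -1.50 ± 0.08, adjusted p = 3.06e-06). LRRN3 had stood at 10.90, 10.86 and 10.75 with vehicle and 9.91, 9.80 and 9.86 with JQ1 alone, and the combination was the lowest of the 4 groups.

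BCL2, the anti-apoptotic mitochondrial protein, measured 9.0, 8.93 and 8.97 with panobinostat and 7.43, 7.79 and 7.74 with the combination, a difference of -1.31 ± 0.09 (adjusted p = 2.3e-05). Its vehicle arrays stood at 10.25, 10.09 and 10.13 and its JQ1 arrays at 9.53, 9.45 and 9.45. The groups therefore did not overlap, and the order from the highest was vehicle, JQ1, panobinostat, combination. The JQ1 change was -0.68 ± 0.09 without panobinostat, and the difference between both changes, -0.63 ± 0.13, narrowly missed the threshold (adjusted p = 0.0545).

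The other large falls were of the peptidase inhibitor PI15 (-1.43 ± 0.12), the synaptotagmin SYT4 (-1.43 ± 0.17), the synaptic organiser LRRTM1 (-1.31 ± 0.11), the endosomal adaptor TOM1L1 (-1.29 ± 0.11), the corepressor subunit TBL1XR1 (-1.19 ± 0.08), the secreted WNT antagonist DKK1 (-1.19 ± 0.14), the ROBO ligand SLIT3 (-1.17 ± 0.13), the tethering factor VPS54 (-1.15 ± 0.11), the MET ligand HGF (-1.13 ± 0.14), the sodium-channel partner FGF14 (-1.07 ± 0.11) and the transcription factor TFAP2B (-1.06 ± 0.09). DKK1 measured 10.05, 9.93 and 10.27 with panobinostat and 8.68, 8.89 and 9.11 with the combination, against 11.94, 11.69 and 11.85 with vehicle. TBL1XR1, a subunit of the NCoR and SMRT complexes that hold HDAC3, measured 9.41, 9.53 and 9.44 with panobinostat and 8.23, 8.17 and 8.41 with the combination. For both genes all combination arrays were below every other array of the series.

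The list counts below are to be read beside the share called of all genes (14.7%) and of protein-coding genes tested (17.1%). Of the 6946 protein-coding genes with a mean signal at or above that of the median gene, 755 rose and 955 fell. Among BET proteins and regulators of P-TEFb, 5 of 18 measured genes rose and 1 fell (33.3% called), with a median of 0.05. Beside HEXIM1, the risers were the methylphosphate capping enzyme MEPCE of the same inactive complex (0.68 ± 0.09), the BET genes BRD2 (0.58 ± 0.10) and BRD3 (0.28 ± 0.06), and the kinase gene CDK9 (0.33 ± 0.06). BRD2 measured 8.67, 8.71 and 8.73 with panobinostat and 9.07, 9.32 and 9.45 with the combination. CDK9 measured 10.25, 10.28 and 10.38 and 10.65, 10.60 and 10.63, a small change that lay outside the spread of the arrays (adjusted p = 0.00356). HEXIM2, the paralogue of HEXIM1, differed by -0.13 ± 0.10 and was not called, whereas JQ1 without panobinostat had lowered it by a log2 difference of -0.79 ± 0.10; the test of that difference gave an adjusted p of 0.0583. BRD3 was not called when only the 6 arrays of both groups entered the fit, and the cyclin gene CCNT2 (-0.35), the faller, was not called in 9 of the 12 fits with 1 array left out.

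Of 22 immediate early and AP-1 genes, which encode transcription factors and regulators induced quickly after stimulation, 10 rose and none fell, and their median was 0.34. FOS measured 7.35, 7.29 and 7.0 with panobinostat and 7.98, 7.93 and 8.48 with the combination (difference 0.92 ± 0.15, adjusted p = 0.00196). A second cluster of FOS at the same symbol differed by 0.07 and was not called (adjusted p = 0.81 over all named clusters). ARC, a regulator of synaptic receptor trafficking, measured 7.62, 7.94 and 7.93 and 8.85, 8.68 and 8.57 (difference 0.87 ± 0.10, adjusted p = 0.000266). KLF2 led the list, and JUND (0.73), EGR1 (0.61), JUNB (0.52), IER2 (0.43), ATF3 (0.40), IER3 (0.38) and DUSP1 (0.33) also rose. JUN (0.18) and FOSB (-0.08) were not called, nor was KLF6 (0.21 ± 0.08), the uncalled member with the highest signal. The lowest difference of any member was -0.43, and it was not called. The count was 13 higher and none lower with JQ1 in the absence of panobinostat. Over the other settings between 7 and 13 members were called higher and at most 1 lower.

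The adrenergic transcription factors, which define the sympathetic neuroblast state, moved the other way: 15 of 24 measured genes fell and none rose, with a median of -0.40. TFAP2B measured 8.77, 8.57 and 8.68 with panobinostat and 7.55, 7.67 and 7.62 with the combination (difference -1.06 ± 0.09, adjusted p = 4.53e-05), having stood at 11.02, 11.25 and 11.02 with vehicle and 9.83, 9.60 and 9.63 with JQ1 alone. EYA1, a transcriptional coactivator and phosphatase, measured 11.31, 11.60 and 11.63 with panobinostat and 10.58, 10.49 and 10.76 with the combination (difference -0.90 ± 0.12, adjusted p = 0.000458). LMO1, a neuroblastoma oncogene, fell from 7.09, 7.26 and 7.10 to 6.29, 6.49 and 6.29 (-0.80 ± 0.13, adjusted p = 0.00157). None of these 3 genes had overlapping arrays. PHOX2A, HAND1 and SATB1 differed by -0.75, -0.76 and -0.76, DACH1 by -0.73, MEIS2 by -0.69, SIX3 by -0.55, TBX3 by -0.53 and ZNF536 by -0.48, and LMO3, TBX2, INSM1 and ISL1 by -0.40 to -0.35.

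The central adrenergic factors HAND2 and GATA3 were not called in the main fit, although the arrays of neither overlapped between the groups. Both were called lower with the filter on dim genes and with the trended and robust prior. HAND2 was also called lower with quantile normalization, with array weights and without panobinostat replicate 1. HAND2 measured 10.67, 10.79 and 10.90 with panobinostat and 10.59, 10.52 and 10.61 with the combination (-0.22 ± 0.07, adjusted p = 0.0761). GATA3 measured 10.80, 10.71 and 10.65 and 10.54, 10.56 and 10.52 (-0.18 ± 0.07, adjusted p = 0.101), and its arrays with JQ1 alone had been above those with vehicle (0.28 ± 0.07). SOX4, with the highest signal of the uncalled members, differed by -0.17 ± 0.07. Without panobinostat, 8 members of this list fell and 3 rose with JQ1, with a median of -0.21, and 3 of the 24 members passed the test of the difference between the JQ1 changes with and without panobinostat. Over the other settings 12 to 18 members were called lower and at most 1 higher.

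**Figure D2:**
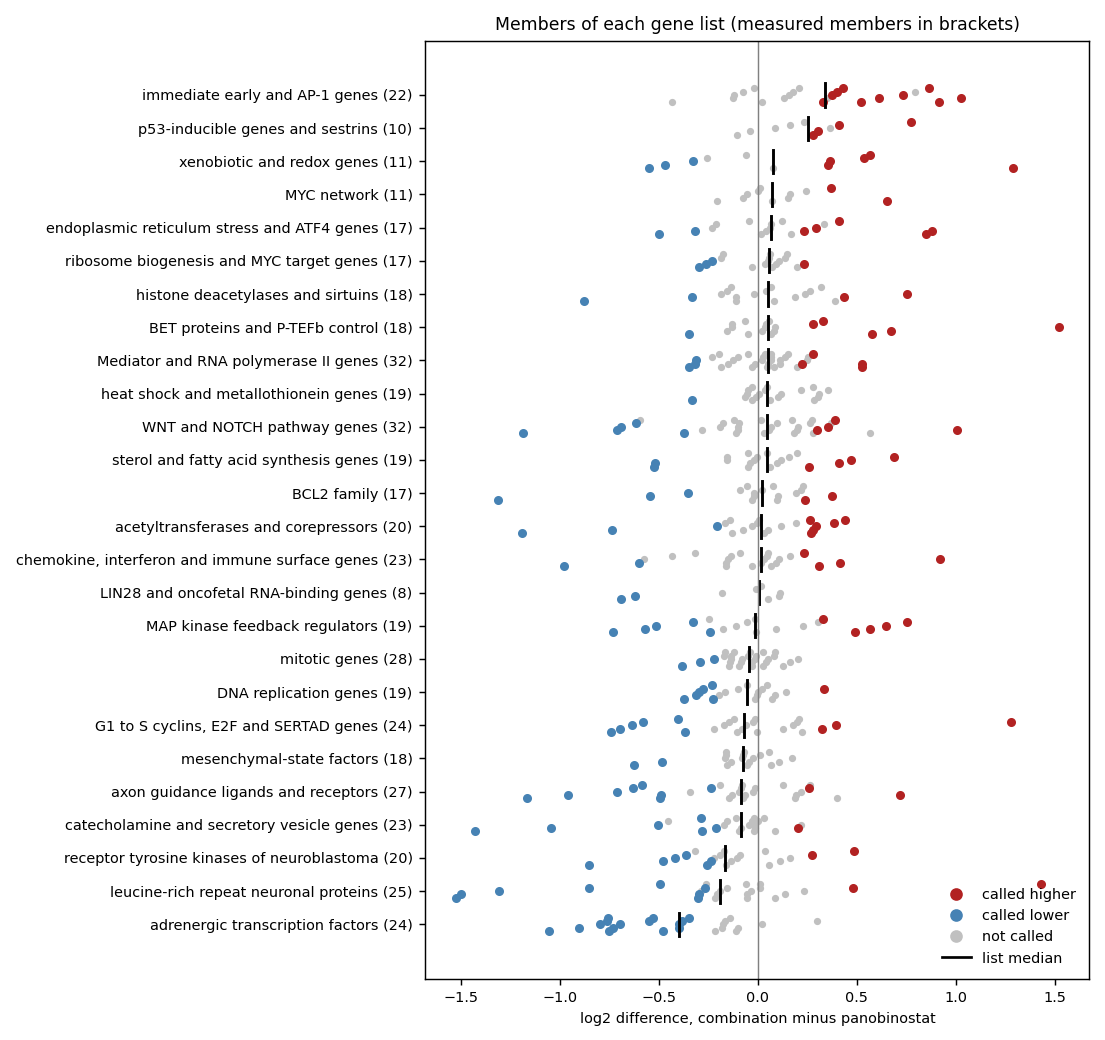
Log2 difference, combination minus panobinostat, of each measured member of 26 gene lists with at least 8 measured members, ordered by the list median (black line); red points were called higher, blue points lower, and grey points were not called, and points are spread vertically only for legibility. The median ran from -0.40 for the adrenergic transcription factors to 0.34 for the immediate early genes.

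Mesenchymal-state factors, markers of the alternative neuroblastoma state, had 2 of 18 members called, both lower: the zinc-finger repressor SNAI2 (-0.63 ± 0.07) and the interferon regulatory factor IRF2 (-0.48 ± 0.07). VIM, the mesenchymal filament gene, differed by -0.04 ± 0.06. Among 23 catecholamine and secretory vesicle genes, 6 fell and 1 rose (median -0.08). The fallers were SYT4, the neuropeptide Y receptor gene NPY2R (-1.04 ± 0.09), the granin SCG2 (-0.50 ± 0.08), CHGB (-0.29), CHGA (-0.21) and the decarboxylase gene DDC (-0.28). The genes of catecholamine synthesis TH (-0.01) and DBH (-0.05) were not called, nor was the neuropeptide GAL (difference under 0.01 in size, SE 0.11). Only 3 members were called lower without combination replicate 1, with median centring or with only the 6 arrays. The riser, SYT11 (0.20), lost its call in most of the fits with 1 array left out.

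Leucine-rich repeat proteins of neurons gave both the largest falls and one of the largest rises. Of 25 measured members, 8 fell and 2 rose (median -0.19). FLRT3, LRRN3 and LRRTM1 fell by more than 2-fold, followed by LRRC4C (-0.85), LRIG3 (-0.49), LRRC4B (-0.30), AMIGO1 (-0.30) and LRRN1 (-0.27). AMIGO3 and LRIG1 (0.48) rose. FLRT2 (-0.06), LRRTM4 (-0.06) and AMIGO2 (0.01) were not called. The count of falling members was 5 when arrays were centred on their medians or when only the 6 arrays of both groups were fitted.

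Among 27 axon guidance genes, 8 fell and 2 rose (median -0.08). SLIT3 fell most. The semaphorin receptor NRP2 measured 7.81, 7.86 and 7.86 with panobinostat and 6.78, 7.13 and 6.75 with the combination (-0.96 ± 0.10, adjusted p = 0.000124). UNC5C (-0.71), EFNA5 (-0.63), PLXNA2 (-0.59), NRP1 (-0.49), UNC5A (-0.49) and SLIT1 (-0.23) were also called lower. The ephrin EFNB2 rose from 7.67, 8.10 and 8.04 to 8.56, 8.73 and 8.70 (0.72 ± 0.13, adjusted p = 0.00334), and the ephrin receptor EPHA4 was called at 0.26. Only 1 member was called higher without combination replicate 1 or 2, panobinostat replicate 1 or 3 or JQ1 replicate 1, and EFNB2 kept its call in every setting tried.

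In the BCL2 family 3 of 17 genes fell and 2 rose (median 0.02). The fallers were BCL2, BCL2L1 (-0.35), both anti-apoptotic, and BMF (-0.54 ± 0.10), a pro-apoptotic BH3-only gene whose second cluster differed by 0.17 and was not called. MCL1, an anti-apoptotic member, rose: it measured 10.04, 10.17 and 10.16 with panobinostat and 10.44, 10.51 and 10.55 with the combination (0.38 ± 0.07, adjusted p = 0.00292). BNIP3L (0.24) was also called higher, and BNIP3 (0.22 ± 0.07) was not (adjusted p = 0.0541). Only 1 member was called higher without combination replicate 1 or 3 or any 1 panobinostat array, and MCL1 kept its call in every setting tried. BAX (0.10), BAK1 (0.08), BBC3 (-0.06) and PMAIP1 (0.23) were not called.

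Of 10 p53-inducible genes and sestrins, 4 rose and none fell (median 0.26), and with JQ1 in the absence of panobinostat 8 rose and none fell (median 0.68). SESN2, a stress-induced inhibitor of mTORC1 signalling, measured 7.65, 7.84 and 8.04 with panobinostat and 8.62, 8.51 and 8.73 with the combination (0.77 ± 0.11, adjusted p = 0.000717). TP53INP1 (0.41 ± 0.12), PLK3 (0.30 ± 0.08) and SESN3 (0.28 ± 0.08) were called by narrower margins. TP53INP1 lost its call with any 1 of the 6 arrays of both groups left out (0.33 to 0.48) and without JQ1 replicate 1 or vehicle replicate 1 or 3 (0.41), and PLK3 without combination replicate 2 (0.30) or 3 (0.26) or panobinostat replicate 1 (0.32) or 2 (0.27). Over all other settings between 1 and 5 members of this list were called higher, with 1 or 2 without any 1 combination array or panobinostat replicate 1 or 2.

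Cell cycle genes moved unevenly. Of 24 G1 to S genes, 6 fell and 3 rose (median -0.07): CCND1, cyclin D1, measured 11.0, 10.76 and 10.81 with panobinostat and 10.21, 10.38 and 10.26 with the combination (-0.58 ± 0.08, adjusted p = 0.000587), and E2F2 (-0.74 ± 0.10), E2F8 (-0.69 ± 0.09), SERTAD4 (-0.63), RBL2 (-0.40) and CDK6 (-0.37) fell with it. SERTAD1, SERTAD3 (0.33) and E2F7 (0.40) rose. Among 19 DNA replication genes 6 fell, by -0.37 (GINS1) to -0.23 (MCM3 and RRM1), and 1, PCNA, rose (0.33 ± 0.06). Between 1 and 7 replication genes were called lower over the other settings, 1 of them with only the 6 arrays. Of 28 mitotic genes 3 were called lower (median -0.04), the largest difference being that of NDC80 (-0.38 ± 0.09), and 1 was called without combination replicate 2 or 3 or panobinostat replicate 2 or 3.

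In the MYC network 2 of 11 genes rose (18.2% called, near the 17.1% of protein-coding genes tested). Both encode MXD proteins that compete with MYC for MAX. MXD1 measured 9.30, 9.47 and 9.51 with panobinostat and 9.98, 10.12 and 10.15 with the combination (0.65 ± 0.11, adjusted p = 0.00217), and MXD4 differed by 0.37 ± 0.10. The call of MXD4 was lost, leaving 1 riser, without combination replicate 2 or 3 or panobinostat replicate 1 or 3, with arrays centred on their medians and with only the 6 arrays fitted. MYC had a low signal, 6.52, 6.07 and 6.52 and 6.50, 6.68 and 6.38, and was not called (0.15 ± 0.13, adjusted p = 0.493). MYCN was not analysed here. Of 17 ribosome biogenesis and MYC target genes, 3 fell and 1 rose (23.5% called, median 0.06). None was called lower without combination replicate 1, and 1 was without combination replicate 2 or panobinostat replicate 2 or 3. The riser PUS7, a pseudouridine synthase gene, has a second cluster that differed by -0.24, and the mean of both clusters differed by -0.002; its call was also lost without combination replicate 3 or any 1 panobinostat array. SRM, spermidine synthase, had the highest signal of the list and differed by 0.04 ± 0.06. LIN28B, an RNA-binding repressor of let-7 maturation, fell from 7.38, 7.56 and 7.60 to 6.83, 6.65 and 6.99 (-0.69 ± 0.10, adjusted p = 0.000721), as did IGF2BP3 (-0.62 ± 0.10), and the other 6 of the 8 oncofetal RNA-binding genes were not called.

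Among histone deacetylases and sirtuins, the first family including the targets of panobinostat, 2 of 18 genes rose and 2 fell (22.2% called, median 0.05). HDAC9, a class IIa enzyme, measured 8.55, 8.42 and 8.45 with panobinostat and 7.61, 7.52 and 7.65 with the combination (-0.88 ± 0.07, adjusted p = 3.27e-05), and HDAC8 differed by -0.33. SIRT1, a NAD-dependent deacetylase outside the reach of hydroxamates, measured 9.73, 9.88 and 9.93 and 10.59, 10.58 and 10.64 (0.75 ± 0.07, adjusted p = 6.34e-05), and SIRT7 rose by 0.44 ± 0.08. SIRT1 with both compounds lay above vehicle (10.22, 10.09 and 10.12) and below JQ1 alone (11.09, 11.08 and 11.09). HDAC1 (0.19), HDAC2 (-0.15) and HDAC3 (0.26 ± 0.11) were not called. Of 20 acetyltransferases and corepressors, 6 rose and 3 fell (median 0.02). The coactivator gene NCOA1 rose (0.44 ± 0.08) while its paralogue NCOA2 fell from 8.97, 9.10 and 9.12 to 8.37, 8.22 and 8.40 (-0.74 ± 0.08, adjusted p = 0.000198). EP300 (0.26), KAT7 (0.38), KAT8 (0.29), SIN3A (0.27) and RCOR1 (0.28) made up the risers, a count of 3 without combination replicate 2 or 3 and of 1 with only the 6 arrays, and TBL1XR1 and MTA1 (-0.20) the other fallers. Of 32 Mediator and RNA polymerase II genes, 4 rose, led by MED19 (0.53 ± 0.09) and MED26 (0.53 ± 0.08), and 3 were called lower (21.9% called, median 0.05). Without combination replicate 2 or panobinostat replicate 2 or 3, 2 members were called higher and 1 lower; 2 were called higher without combination replicate 3 and 1 lower without combination replicate 1.

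Signalling genes were also divided. Of 20 receptor tyrosine kinase and co-receptor genes, 6 were called lower and 2 higher (median -0.16). GFRA2, the neurturin co-receptor and not itself a kinase, fell from 7.94, 7.84 and 7.93 to 7.11, 7.14 and 6.91 (-0.85 ± 0.08, adjusted p = 0.000112). The kinase genes ROR2 (-0.48 ± 0.12), EGFR (-0.42), ROR1 (-0.36), ERBB4 (-0.26) and IGF1R (-0.23) also fell. FGFR4 was called higher (0.49 ± 0.12). The calls of ROR2 and FGFR4 were each lost in some fits with 1 array left out. RET (-0.32 ± 0.11) and ALK (-0.10) were not called. Without combination replicate 2 or panobinostat replicate 2 the counts were 3 lower and none higher, and without combination replicate 1 none was higher and without panobinostat replicate 3 it was 1. Of 19 MAP kinase feedback regulators 5 rose and 5 fell (median -0.01): the phosphatase DUSP14 rose from 9.14, 8.94 and 9.20 to 9.76, 9.94 and 9.85 (0.76 ± 0.09, adjusted p = 0.000302), with ERRFI1 (0.57) and DUSP5 (0.49), while the ETS factor ETV1 (-0.73 ± 0.08), DUSP16 (-0.57), DUSP4 (-0.51) and DUSP6 (-0.33) fell. Of these regulators 3 were called lower without combination replicate 1, any 1 panobinostat array or JQ1 replicate 3, and 3 were called higher without combination replicate 3 or panobinostat replicate 1. Of 32 WNT and NOTCH genes 4 rose and 5 fell (28.1% called, median 0.05). DKK1, the NOTCH target HEY1 (-0.71 ± 0.10), the R-spondin receptor LGR5 (-0.69), FRZB (-0.61) and SFRP1 (-0.37) fell, and DNER, HES6 (0.39), NOTCH1 (0.36) and AXIN1 (0.30) were called higher, a count of 4 that became 2 without any 1 combination array or panobinostat replicate 2.

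Stress and metabolic genes moved in both directions. Of 17 endoplasmic reticulum stress and ATF4 genes, 5 rose and 2 fell (median 0.07). ERN1, the stress sensor IRE1, measured 7.59, 7.56 and 7.89 with panobinostat and 8.44, 8.56 and 8.68 with the combination (0.88 ± 0.11, adjusted p = 0.000421), and REEP6 rose by 0.85 ± 0.15. ASNS (0.41), SEL1L (0.30) and ATF4 (0.23) also rose, whereas DDIT3 (-0.05) and TRIB3 (-0.23) were not called, and without combination replicate 3 the risers numbered 3. Of 19 sterol and fatty acid genes 4 rose, led by the SREBP regulator INSIG1 (0.69 ± 0.10), and 2 fell, ELOVL6 (-0.52 ± 0.07) and STARD4 (-0.52 ± 0.09), with a median of 0.05; the risers numbered 2 without combination replicate 2 or 3 or panobinostat replicate 1. Among 11 xenobiotic and redox genes 5 rose and 3 fell: the AHR target TIPARP rose by 0.57 ± 0.09 and TXNIP by 0.54, and NFE2L2 (-0.55 ± 0.11), its partner KEAP1 (-0.47) and TXNRD1 (-0.33) were called lower, a count of 3 that became 1 without combination replicate 1 or panobinostat replicate 3. Of 19 heat shock and metallothionein genes only MT1B was called (-0.33 ± 0.09), at signals under the median gene and not without combination replicate 1 or 2 or panobinostat replicate 1 or 3, and HSPA1A, the gene of highest signal, differed by 0.12 ± 0.07. Of 23 chemokine, interferon and immune surface genes 4 rose and 2 fell (26.1% called, median 0.02). The interferon regulatory factor IRF7 rose from 6.87, 6.65 and 6.79 to 7.66, 7.71 and 7.70 (0.92 ± 0.09, adjusted p = 0.000122), the chemokine CCL2 fell from 6.99, 7.31 and 7.70 to 6.46, 6.33 and 6.29 (-0.98 ± 0.18, adjusted p = 0.00464), and CD200 differed by -0.60 ± 0.10. The count of higher members was 1 without combination replicate 1 or 2 or panobinostat replicate 1, and 2 without combination replicate 3 or panobinostat replicate 3. No histone gene of the list was measured, and of the ion channels only HCN4 was (0.06 ± 0.09, not called).

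Of the non-coding genes, 9 of 1072 microRNA genes were higher (0.84%) and 23 lower (2.15%), 28 of 1398 lncRNA genes were higher (2.0%) and 68 lower (4.86%), against 858 (7.2%) and 1175 (9.86%) of 11916 protein-coding genes. These shares were not tested against each other. The non-coding genes with the largest rises besides MIR7-3HG were MIR4525 (1.03 ± 0.13), STAG3L3 (0.82 ± 0.16), ARHGEF26-AS1 (0.82 ± 0.15) and MIR3143 (0.81 ± 0.14). STAG3L3 has near-identical copies elsewhere in the genome, so its value is uncertain. The largest falls were of LOC730101 (-0.82 ± 0.13), BACE1-AS (-0.82 ± 0.13), LINC00294 (-0.76 ± 0.08), LINC00963 (-0.75 ± 0.13) and MIR548V (-0.75 ± 0.12). The probes of a microRNA gene on this array report RNA from the hairpin locus, which includes precursor and host transcripts, not the mature microRNA. MIR4525 measured 9.93, 9.77 and 10.03 with panobinostat and 11.09, 10.63 and 11.11 with the combination, against 8.76, 9.07 and 8.81 with vehicle and 8.90, 8.93 and 8.97 with JQ1 alone. The mature sequences of MIR4525 and of MIR7-3 are shown, as those of the microRNA locus with the largest rise and of the locus in the most raised host transcript, with the seed (bases 2 to 8) in capitals, from RefSeq on GRCh38.p14, at chr17:82668281-82668301 (minus strand) and chr19:4770700-4770723 (plus strand).
hsa-miR-4525: gGGGGGAUgugcaugcugguu
hsa-miR-7-5p: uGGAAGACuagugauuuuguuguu
The seeds differ, and the first is made almost wholly of G.

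JQ1 changed many of the same genes with and without panobinostat. The change without panobinostat was taken from the vehicle and JQ1 arrays, which are none of the 6 arrays of the other contrast, although all 12 share the estimate of the spread and the authors' normalization. With JQ1 alone 2627 genes were called (17.6%), 1218 higher (8.18%) and 1409 lower (9.47%). Of the 912 genes higher with the combination, 514 (56.4%) were also higher with JQ1 alone, 393 (43.1%) were not called and 5 were lower. Of the 1272 lower genes, 728 (57.2%) were also lower, 536 (42.1%) were not called and 8 were higher. These shared genes were 42.2% of those higher and 51.7% of those lower with JQ1 alone. Over all 14884 genes both changes had a Pearson correlation of 0.592 and a Spearman correlation of 0.487, given as a description, since genes are not independent replicates.

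Being called in only 1 of the contrasts did not as a rule mean a tested difference. Of the 393 and 536 genes called only with panobinostat, 319 and 420 had the same sign without it, and the difference itself was called for 6 and 17. Of the 1242 genes called in both contrasts in the same direction, 713 (57.4%) changed less in the presence of panobinostat, and the difference was called for 26. At least 2-fold changes numbered 14 rises and 32 falls with panobinostat against 55 rises (0.37%) and 74 falls (0.497%) without.

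**Figure D3:**
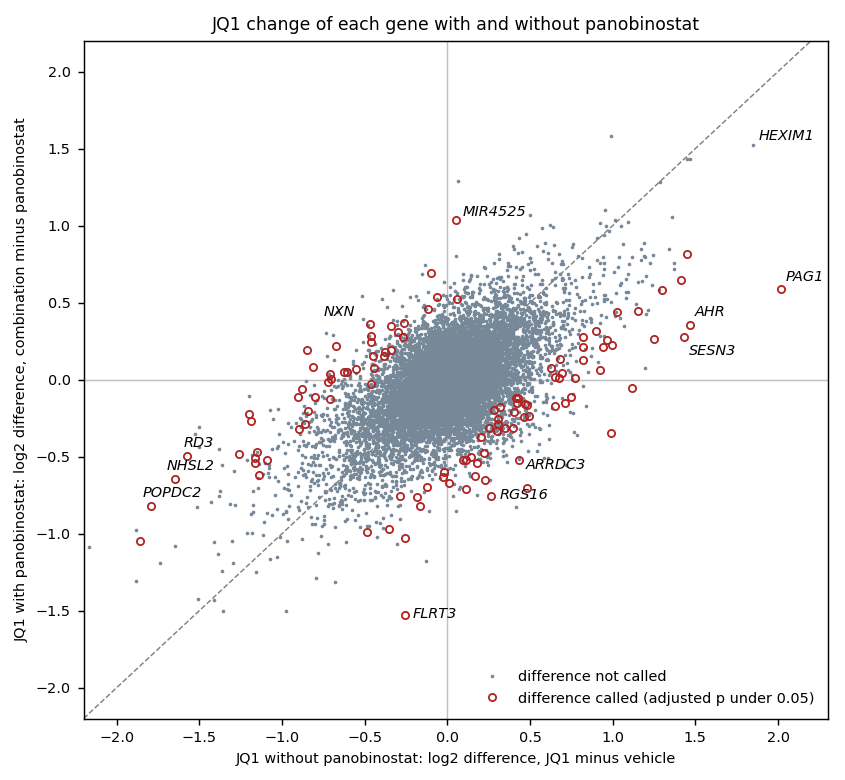
Log2 JQ1 change of each of the 14884 genes without panobinostat (horizontal axis, JQ1 minus vehicle) and with it (vertical axis, combination minus panobinostat); the dashed line marks equal changes and red circles mark the 113 genes whose changes differed at an adjusted p under 0.05 in limma. HEXIM1 lies near the line at 1.85 and 1.52, whereas PAG1 lies far below it at 2.02 and 0.59.

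The direct test, the JQ1 change with panobinostat minus that without, called 113 genes (0.759%), 46 of them higher (0.309%) and 67 lower (0.45%). Of these, 90 were called with JQ1 alone, 62 were called when JQ1 was added to panobinostat, and 79 had a change closer to 0 with panobinostat. The count fell to 28 without combination replicate 2 and lay between 48 and 71 without any 1 of the other arrays except vehicle replicate 1, without which it was 86.

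PAG1, a membrane adaptor that recruits the kinase CSK, rose from 8.59, 8.05 and 8.30 with vehicle to 10.33, 10.38 and 10.29 with JQ1, and measured 9.54, 9.64 and 9.94 with panobinostat and 10.24, 10.21 and 10.43 with both. The JQ1 and combination arrays overlapped, and the panobinostat arrays stood above those with vehicle. The JQ1 change was 2.02 ± 0.13 without and 0.59 ± 0.13 with panobinostat (difference -1.43 ± 0.19, adjusted p = 0.0107). SESN3 measured 9.21, 9.04 and 9.20 with vehicle, 10.56, 10.62 and 10.55 with JQ1, 10.34, 10.56 and 10.56 with panobinostat and 10.74, 10.78 and 10.77 with both, and its JQ1 change was 1.43 ± 0.08 without and 0.28 ± 0.08 with panobinostat (difference -1.15 ± 0.11, adjusted p = 0.00443). AHR, the aryl hydrocarbon receptor, measured 8.25, 8.42 and 8.41 with vehicle, 9.81, 9.79 and 9.88 with JQ1, 10.32, 10.37 and 10.51 with panobinostat and 10.88, 10.60 and 10.78 with both (difference -1.11 ± 0.12, adjusted p = 0.00694). In all 3 genes the tested difference held in every setting tried, while the smaller change with panobinostat lost its own call in some. Among fits with 1 array left out, that was so for SESN3 without any 1 combination array (0.27 to 0.29) or panobinostat replicate 1 (0.21), for AHR without combination replicate 1 (0.29) or 3 (0.34) or panobinostat replicate 1 (0.31) or 2 (0.34), and for PAG1 without combination replicate 3 (0.52) or panobinostat replicate 1 (0.51). With only the 6 arrays the calls of SESN3 (0.28) and AHR (0.35) were lost, and that of SESN3 also with median centring (0.30).

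FLRT3 differed the other way, with a fall that was larger in the presence of panobinostat. Its vehicle arrays stood at 8.71, 8.30 and 8.13 and its JQ1 arrays at 7.98, 8.24 and 8.15, which overlapped, and panobinostat alone was the highest of the 4 groups. The JQ1 change was -0.26 ± 0.14 without panobinostat and -1.53 ± 0.14 with it (difference -1.27 ± 0.19, adjusted p = 0.0164). RGS16, a GTPase activator of G-protein signalling, measured 8.54, 8.23 and 8.64 with vehicle, 8.80, 8.63 and 8.79 with JQ1, 9.90, 9.89 and 10.09 with panobinostat and 9.18, 9.09 and 9.36 with both (difference -1.02 ± 0.16, adjusted p = 0.0166). Both tested differences were lost without combination replicate 2 (-1.24 and -0.96). That of FLRT3 was also lost with a replicate block (-1.27), and that of RGS16 without JQ1 replicate 1 (-0.99).

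Among genes lowered by JQ1, RD3, NHSL2, POPDC2 and the neuropeptide Y receptor gene NPY2R fell less in the presence of panobinostat. RD3 measured 9.26, 8.98 and 9.33 with vehicle, 7.61, 7.50 and 7.73 with JQ1, 7.78, 7.67 and 7.95 with panobinostat and 7.34, 7.14 and 7.44 with both (difference 1.08 ± 0.16, adjusted p = 0.0164). The changes without and with panobinostat were -1.65 and -0.65 for NHSL2 (adjusted p of the difference 0.00902), -1.79 and -0.82 for POPDC2 (0.00902), and -1.86 and -1.04 for NPY2R (0.0166). A second cluster of RD3 differed by -0.02 between combination and panobinostat, and the fall of the first was not called without combination replicate 2 (-0.41) or panobinostat replicate 3 (-0.42). The test for NPY2R was lost without combination replicate 2 (0.80) or 3 (0.76) or JQ1 replicate 2 (0.79). It was also lost with arrays centred on their medians (0.82) and with a replicate block (0.81).

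In 13 genes the JQ1 change was called in both contrasts with opposite signs, and the difference was called in each; they were chosen by that pattern after their values had been seen. NXN, a thioredoxin-family oxidoreductase, fell with JQ1 alone, from 8.84, 8.69 and 8.84 to 8.42, 8.24 and 8.31, and rose from 8.32, 8.29 and 8.40 with panobinostat to 8.65, 8.71 and 8.74 with both (difference 0.83 ± 0.10, adjusted p = 0.00902). ARRDC3, an arrestin-domain adaptor, rose from 9.24, 9.12 and 9.04 to 9.61, 9.59 and 9.50 with JQ1 alone and fell from 9.35, 9.47 and 9.46 with panobinostat to 8.84, 8.84 and 9.05 with both (difference -0.95 ± 0.12, adjusted p = 0.00902). The others were HEATR3, NUBP1, POMK and TADA2A, which like NXN rose with the combination, and AMOT, FBXL7, MIR548AA1, MT1B, PRAG1, RTL5 and TRIM9, which fell. Apart from ARRDC3 and MIR548AA1, all changed by less than 0.40 in the presence of panobinostat, and MIR548AA1 and MT1B had signals below the median gene. Of the 13 genes, ARRDC3, MIR548AA1 and NXN kept their call with panobinostat in every setting tried, and the other 10 lost it in at least 1.

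**Figure D4:**
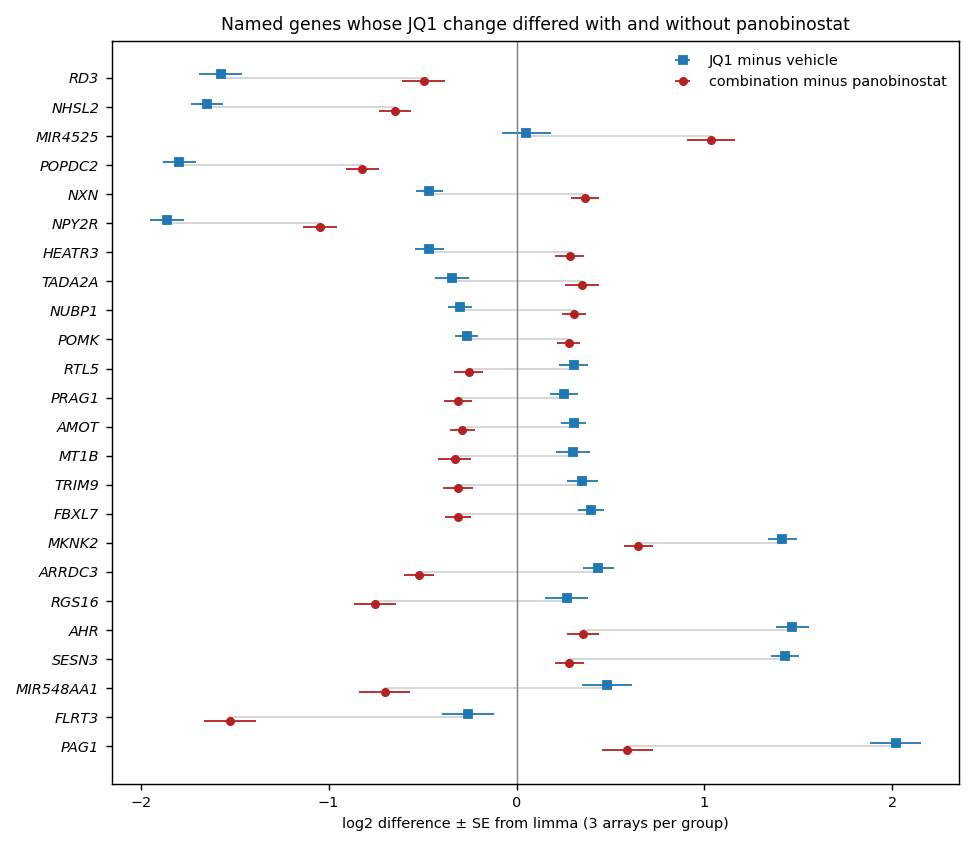
JQ1 change of the 24 named genes for which the difference was called: blue squares show JQ1 minus vehicle, red circles combination minus panobinostat, and bars the SE from limma with 3 arrays per group. PAG1, SESN3, AHR and MKNK2 changed less with panobinostat (0.59, 0.28, 0.35 and 0.65) than without it (2.02, 1.43, 1.47 and 1.41), and FLRT3 changed more.

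The median length of the genes that fell was greater than that of the other genes. Gene length was taken from RefSeq annotation of GRCh38.p14 for the 6946 protein-coding genes whose mean signal was at or above that of the median gene, all of which had a length. The median length was 57.0 kb for the 955 genes that fell, 28.5 kb for the 755 that rose and 28.3 kb for the 5236 that were not called. It was 106.0 kb for the 116 genes that fell by at least 0.7 and 33.7 kb for the 57 that rose by as much. The share of genes that fell was 7.3% of 1425 genes up to 10 kb, 10.7% between 10 and 30 kb, 14% between 30 and 100 kb, 23.6% between 100 and 300 kb and 32.4% of the 250 genes over 300 kb. The share that rose went from 12.1% of the shortest genes to 6.0% of the longest. The order of the shares that fell was similar for JQ1 without panobinostat, from 10.2% to 23.6%. Over the other settings 25.2 to 37.2% of the genes over 300 kb and 3.65 to 10.7% of those up to 10 kb fell. In these settings 3.2 to 10.4% of the genes over 300 kb and 7.09 to 17.2% of those up to 10 kb rose, so these ranges overlap. These shares are a description, were computed after the calls had been seen, and were not tested.

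**Figure D5:**
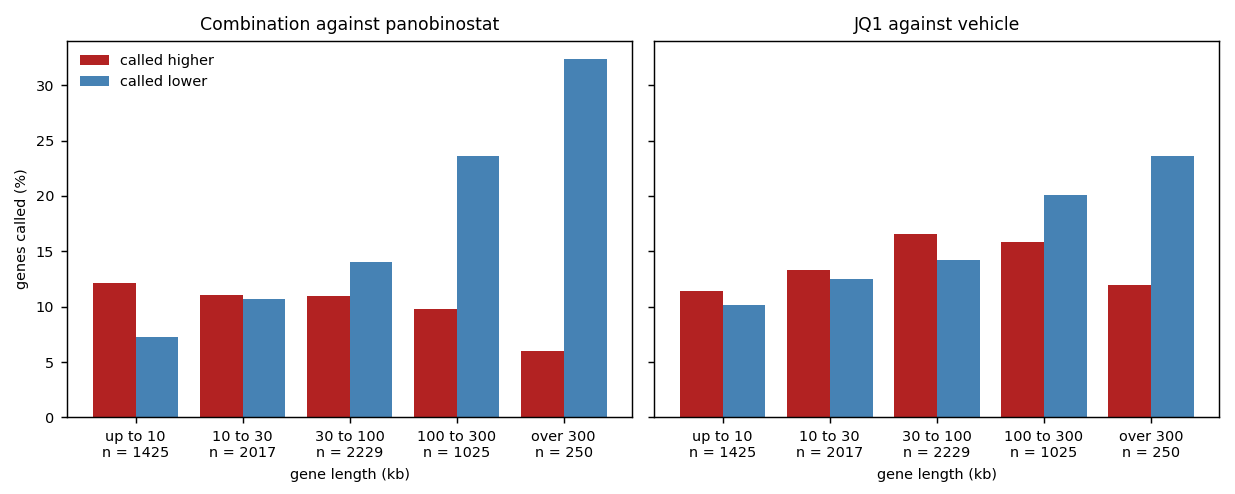
Percent of protein-coding genes of ample signal that were called higher (red) or lower (blue), by gene length in kb, for the combination against panobinostat (left) and for JQ1 against vehicle (right). On the left the share called lower goes from 7.3% of genes up to 10 kb to 32.4% of genes over 300 kb.

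The promoter windows of the same genes differed in composition. A RefSeq window was found for 5818 of the 6946 genes (83.8%), and 1 window was used for each gene. GGGCGG, on either strand, was present in 83.0% of the windows of genes that rose, 67.6% of those of genes that fell and 73.4% of those not called, against 44.6% of all 27305 windows in the RefSeq table. CCAAT was present in 49.5%, 30.7% and 37.5% of these groups, and in 35.7% of all windows. TATAAA was present in 5.76%, 5.34% and 4.78% (12% of all windows), the AP-1 motif TGACTCA in 1.09%, 2.54% and 2.35% (4.92%), and the E-box CACGTG in 8.72%, 9.67% and 10.9% (7.43%). The 27305 windows were not limited to protein-coding genes or by signal. Over the 5818 windows of the genes examined, the shares were 73.7% for GGGCGG, 37.9% for CCAAT, 4.97% for TATAAA, 2.23% for TGACTCA and 10.5% for CACGTG. The median GC content was 68.3% for genes that rose, 64.7% for genes that fell and 66.0% for the rest. The shares of GGGCGG and of CCAAT had the same order, and a relation to base composition was not tested. A match is a stretch of letters and not a bound site, and none of these shares was tested.

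Markers of other cell types were examined because a change of cell mix would move them. Of the fibroblast markers DCN and LUM were measured. LUM had a high signal in every group (means of 11.7 with panobinostat and 11.4 with the combination). It narrowly missed the threshold (-0.32, adjusted p = 0.0523, limma), and its arrays did not overlap between the groups. DCN had a low signal (-0.12, not called). With JQ1 alone, 1 of these 2 markers was called lower, and their median was -0.35. Of the endothelial markers KDR rose by 0.43, at signals of 6.18 to 6.74 over both groups, while PECAM1 and VWF were not called. None of the 4 epithelial, 2 leukocyte and 3 Schwann cell markers measured was called. Of 9 neuroblast markers measured 4 fell and none rose (median -0.21), PHOX2A most. The part of these markers in the results was not tested.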

How the data were processed

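Total RNA of SK-N-BE(2) cells was measured on 12 Affymetrix Human Gene 2.0 arrays (1 per sample, 4 groups of 3, grouped by their titles). The values are log2 signals as deposited by the authors, 53617 transcript clusters by 12 arrays, running from 1.391 to 14.097; that the base is 2 is taken from this range and is not stated. MAS5 and affy are named per the submitters' processing notes, without a version or role, and the steps of background correction and normalization, like the build, were not given in the sources used here. The values carry no detection call, so how far a signal stood over background is unknown, and precision is limited by the 3 arrays in a group.

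A platform table named 16098 clusters with 1 gene symbol each, and 37519 had no name and were not used. All 16098 were found in a RefSeq gene table (GRCh38.p14) by Entrez number. Of the 14884 genes, 779 had more than 1 cluster, and the cluster of highest mean signal stood for the gene; 4 genes had values equal to those of another gene. Differences were fitted in R 4.3.3 with limma 3.58.1 (functions lmFit and eBayes; a coefficient for each group over 12 arrays, with 8 residual and 3.457 prior degrees of freedom), with no further normalization or filter. P-values are two-sided and Benjamini-Hochberg adjusted over the 14884 genes. With 3 against 3 arrays the smallest exact permutation p is 0.1, so that test was not used. The fit was tested on simulated data.

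The comparison and the 28 gene lists were chosen with earlier results of these data known, so list counts are descriptions, to be read beside the share of all genes called, and no list was tested as a set. The genes named are the 15 largest rises and 15 largest falls of called protein-coding genes without overlap of arrays and with a higher group mean at or above the median gene mean; the 5 non-coding genes each way under the same conditions; up to 3 called members and 1 uncalled member of each list; the 5 genes each way with the largest called difference between the JQ1 changes; and genes central to the compounds or the disease. Other list members are given by their values for completeness of the count. The alternatives tried were other normalizations, a filter on dim genes, the mean of a gene's clusters, only the 6 arrays, a replicate block, array weights, another prior, and leaving out each array. The replicate numbers were checked for pairing through correlations of the deviations from the group mean. Combination and panobinostat arrays of the same number correlated at 0.236, 0.083 and 0.191, and those of unlike number at -0.205 to 0.035. The labels state no pairing, and no block was used in the main fit. An effect of the replicate number may therefore remain in its spread, and the counts with a block are given further on.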

Additional observations from a re-analysis of the deposited data

Results flagged for a closer look

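For 24 of the named genes the JQ1 change differed with and without panobinostat by a direct test (limma, adjusted over 14884 genes), and the values below are the change with panobinostat minus that without, on the log2 scale. No explanation was tested for any of them. Among genes that JQ1 alone raised, the rise was smaller in the presence of panobinostat for PAG1 (-1.43), SESN3 (-1.15), AHR (-1.11) and the kinase gene MKNK2 (-0.77). The fall of FLRT3 was larger with panobinostat (-1.27), and RGS16 fell only in the contrast with panobinostat (-1.02). Genes that JQ1 lowered less with panobinostat were RD3 (1.08), NHSL2 (1.00), POPDC2 (0.97) and NPY2R (0.81). MIR4525 rose with panobinostat and differed by 0.98 from its change without. A called rise with JQ1 alone and a called fall with panobinostat were found for MIR548AA1 (-1.18), ARRDC3 (-0.95), FBXL7 (-0.71), TRIM9 (-0.66), MT1B (-0.63), AMOT (-0.59), PRAG1 (-0.57) and RTL5 (-0.56). The opposite pattern was found for NXN (0.83), HEATR3 (0.75), TADA2A (0.69), NUBP1 (0.61) and POMK (0.54).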

How the results depend on the processing

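Of the 121 named genes called in the comparison, 90 stayed called in the same direction in every setting tried. The other 31 lost their call in at least 1, and BUB1B, MED4, RTL5 and TP53INP1 lost it in more than 10. The uncalled named genes BNIP3, CCNG1, CDK4, GATA3, HAND2, KDM1A, KLF6, RET, SOX4 and SPRY4 gained a call in at least 1 setting. The 2184 calls became 1478 with arrays centred on their median (645 higher and 833 lower), 1325 with only the 6 arrays of both groups (512 higher and 813 lower), 1627 with a replicate block (651 higher, 976 lower) and 2752 with quantile normalization. They lay between 1461 and 2260 with 1 array left out (524 to 946 higher, 878 to 1314 lower). Genes changed at least 2-fold numbered 38 to 60 over all settings. The block gave 48 genes (19 higher, 29 lower) in place of 113 for the difference between the JQ1 changes; the numbers do not establish pairing, although each array correlated best with its own number, a hint from the data. Under the block the difference was no longer called for FLRT3 (-1.27) or NPY2R (0.81), and the change with panobinostat was no longer called for SESN3 (0.28) and some other named genes. That count was 41 (18 higher and 23 lower) with median centring, 313 (104 and 209) after quantile normalization, 259 (111 and 148) without dim genes, 220 (87 and 133) with array weights, 324 (127 and 197) with a trended and robust prior, and 28 to 86 with 1 array left out (14 to 34 higher, 14 to 56 lower). A fit of 6 arrays cannot give it. Some settings use fewer arrays or genes, and the cause of these shifts was not tested. The sign turned for small uncalled differences: GAL (0.0166 with median centring, 0.0332 with centring on named genes, -0.0778 to 0.0758 with 1 array left out, among them 0.0019 and 0.0526), MCM4 (0.0014 and 0.0179 in the same settings, -0.0627 to 0.0108 with 1 array left out, among them 0.0061), SCD (0.0134 with centring on named genes, -0.0713 to 0.0257 with 1 array left out, among them 0.015), SRM (-0.0017 to 0.0825 with 1 array left out), TOP2A (0.0058 with centring on named genes) and HEXIM2 (0.0002 with the mean of its clusters). It also turned for PUS7, which was called (-0.002 with the mean of its clusters).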
